A study of Homo sapiens with 72 samples.

Results

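The libraries described here measured how far cytoplasmic transcripts of A375 cells had fallen 3 h after transcription and translation were both blocked. They were chosen by their labels alone, as siGL2 cells that received triptolide with cycloheximide (TCHX) and were harvested at 0 h or at 3 h, which gave 6 of the 72 libraries of the series, 3 per time. A375 is an established human melanoma line. siGL2 is the control siRNA of the study, and the cells had carried it for 42 h. Triptolide (25 µM), which blocks transcription, was given to all cells compared here, and cycloheximide (100 µg/ml), which stalls translating ribosomes, was given to the TCHX cells as well. The study's methods place it shortly before triptolide for its drug experiment, and whether this holds for the siRNA cells is not given in the sources used here. The 0 h cells were harvested right after the agents were added. RNA was taken from the cytoplasm and read from the 3′ end of polyadenylated transcripts (QuantSeq), with 1 cell line and 1 control siRNA as the only model. Values of the T cells (the same siGL2 cells given triptolide without cycloheximide) and of pQ cells (A375 cells without siRNA, 18 h after a change to medium that contained glutamine, also TCHX) are set beside them where they differ. The labels do not state that the 3 replicates of a group came from separate cultures, so the p-values measure only the spread between these libraries, which may be technical.

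Once transcription stops, the amount of an mRNA falls at the rate at which it is degraded. In mammalian cells many mRNAs are degraded while they are being translated, through removal of the poly(A) tail, decapping and digestion, and some decay routes, such as nonsense-mediated decay, need a translating ribosome. Other routes are recruited by sequences in the 3′ untranslated region (UTR), of which the AU-rich elements of cytokine, growth-factor and immediate early mRNAs are the best known, by binding proteins such as tristetraprolin and Roquin that bring deadenylases and nucleases. Counts under TCHX follow each transcript while its ribosomes are stalled.

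The stretches with the AU-rich nonamer TTATTTATT are printed first because they are the classical sequence of such decay and stand in mRNAs whose counts fell here. They were chosen after the values were seen, from mRNAs lower at 3 h on both scales described below. Each is 25 bases of the sense strand of the GENCODE 3′ UTR on GRCh38, with the nonamer in capitals. The FOS stretch lies at chr14:75282062-75282086 on the plus strand, 646 bases after the stop codon of a UTR of 806 bases. The REL stretch lies at chr2:60925008-60925032 on the plus strand, 2481 bases into a UTR of 9077. The IER5 stretch lies at chr1:181092445-181092469 on the plus strand, 2567 bases into a UTR of 3014, and the EPM2AIP1 stretch at chr3:36986436-36986460 on the minus strand, 4802 bases into a UTR of 6211.
FOS: tttttaatTTATTTATTaagatgga
REL: atatataaTTATTTATTttgccctt
IER5: gtcttcctTTATTTATTtatttatt
EPM2AIP1: ttctctttTTATTTATTtgtaaaag
Counting overlapping matches, the UTR of IER5 held 3 nonamers, that of EPM2AIP1 2, and those of FOS and REL 1 each. The 3 of IER5 overlap within its printed stretch, in which only the first is in capitals.

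The 6 libraries held between 9095630 and 14727204 counts and between 16121 and 16901 genes with a count. Over the 12497 genes that passed the filter on low counts, Pearson's r of log counts was 0.986 to 0.988 within a time (6 pairs of libraries) and 0.971 to 0.978 between times (9 pairs). All 10 melanocytic and melanoma markers had counts, with a summed level of 1317 to 1543 CPM (counts scaled to a fixed library total) at 0 h and 1310 to 1483 at 3 h. Keratinocyte markers summed to at most 0.11 CPM, leukocyte markers to at most 1.43, endothelial markers to at most 1.80 and fibroblast markers to at most 10.9, and KRT5, DSG3, CD79A, PECAM1, CDH5 and COL3A1 had no count. In bulk RNA, fewer cells and less RNA per cell cannot be told apart.

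A fall needs a scale. The main scale divided each library by stable genes, 198 genes whose CPM rose after triptolide in both arms of siGL2 and siCTU2 cells (siCTU2 cells carried an siRNA against CTU2). Since these genes were picked for rising, the scale itself sets how far all others fall. On it the median gene had a log2 change of -0.48 at 3 h, which left 71.5% of the 0 h count, and the same-numbered pairs of libraries gave -0.58, -0.39 and -0.50 (mean -0.49 ± 0.091, SD, n = 3). On the TMM scale, which centres on the bulk of genes, the median was close to 0, at -0.002. Of the 12497 genes, 7701 were lower at 3 h on the stable-gene scale (61.6%; edgeR quasi-likelihood test, Benjamini-Hochberg adjusted p under 0.05), 1087 of them at least 2-fold (8.70%), and 135 were higher (1.08%). On the TMM scale 654 were lower (5.23%) and 353 higher (2.82%), a split that depends on the scale. All 654 were also lower on the stable-gene scale. These 654 genes, lower on both scales, are the genes called lower without translation in what follows, and their share of all tested genes, 5.23%, is the background against which each group is read. The count was 396 without TCHX 3 h replicate 1, 413 without TCHX 0 h replicate 1 and 1106 with a block for the replicate number.

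The largest falls were mostly of transcripts that encode no protein. Among genes with at least 100 normalised counts at 0 h that moved alike in all 3 same-numbered pairs, 3 of the 15 largest falls were protein-coding. Of all 12497 tested genes, 10845 were. Only 12 of the 15 were found in RefSeq, and the others have no class here. The span of 8 of the 15 lay inside that of another gene in RefSeq, a share that was not computed over all tested genes. LOC112268009, a noncoding transcript inside the span of CDK6, had 298, 304.2 and 295 normalised counts in the 0 h libraries and 3.94, 5.63 and 6.47 in the 3 h libraries, a log2 change of -5.75 ± 0.27 (SE; edgeR adjusted p = 1.1e-12). The 3 h libraries lay far below the 0 h libraries, and raw counts there were only 4, 8 and 8. RUNX1-IT1 and KIRREL1-IT1, named as intronic transcripts of RUNX1 and KIRREL1, changed by -5.64 ± 0.48 and -3.63 ± 0.33 (adjusted p = 1.1e-08 and 3.5e-08). Counts of such genes and of intronic reads of the host cannot be told apart in this table, and the same holds for LOC107985895 inside TGFA (-5.81 ± 0.42) and EBLN2, a gene derived from an ancient bornavirus and lying inside PPP4R2 (-4.61 ± 0.40). The retrocopies RPS15AP10 and RPL23AP32 are also in this group but may share reads with their parent ribosomal protein genes, so they are uncertain.

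Some primary transcripts of microRNAs fell too. Of the 4 given here, MIR222HG, MIR17HG and MIRLET7BHG were among the largest falls. MIRLET7BHG and MIR3142HG were picked for a small difference between arms, among genes that fell at least 4-fold in both. The share that fell among all microRNA host genes was not counted. MIR222HG, the host of miR-221 and miR-222, had 174, 250.4 and 193 normalised counts at 0 h and 4.93, 11.97 and 8.09 at 3 h. MIR17HG, the host of the miR-17-92 cluster, had 338, 183 and 207 at 0 h and 7.89, 13.4 and 20.2 at 3 h. Their log2 changes were -4.56 ± 0.31 and -4.09 ± 0.31 (adjusted p = 2.9e-10 and 1.8e-09), and no 3 h library of either came near a 0 h library. MIRLET7BHG, the host of let-7 microRNAs, changed by -3.16 ± 0.32 and MIR3142HG by -2.97 ± 0.22. With translation running, the 4 changes were -5.40, -4.50, -3.18 and -2.98. The differences between arms were 0.85 ± 0.55 for MIR222HG and 0.42 ± 0.49 for MIR17HG (adjusted p = 0.57 and 0.8). Those of MIRLET7BHG and MIR3142HG were 0.02 ± 0.56 and 0.01 ± 0.34. These small values follow from how the genes were picked, so they cannot show whether microRNA hosts fall alike in both arms. In RefSeq classes, 81 of 874 lncRNAs were lower on both scales (9.27%) against 501 of 10845 protein-coding genes (4.62%), with medians of -0.60 and -0.48 over all tested members of each class. The median difference between arms was 0.03 on the log2 scale over 861 lncRNAs and 0.01 over 10819 protein-coding genes, and 11 of these lncRNAs (1.26%) and 463 of these protein-coding genes (4.27%) fell less under TCHX than with translation running.

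Of the protein-coding genes with at least 100 normalised counts at 0 h that moved alike in the same-numbered pairs, NFKBIZ had the largest fall after EBLN2, while ZC3H12A and SMAD7, with fewer counts, had larger fitted falls. NFKBIZ encodes a nuclear cofactor of NF-κB and is a known target of the endonuclease Regnase-1. It had 140.3, 144 and 159 normalised counts at 0 h and 0, 12.7 and 7.28 at 3 h, with no count in replicate 1, for a log2 change of -4.35 ± 0.43 (adjusted p = 1.1e-07). TENT5A, a noncanonical poly(A) polymerase, had 749, 735 and 637 at 0 h and 91.7, 119.7 and 75.2 at 3 h, leaving 13.4% ± 2.47 (SD, n = 3). CCN1, a secreted matrix protein induced by growth factors, varied more among its 0 h libraries, with 597, 731 and 362, and had 58.2, 125 and 43.7 at 3 h. For all 3 mRNAs every 3 h library lay below every 0 h library. On GRCh38 NFKBIZ spans chr3:101827991-101861022 on the plus strand and TENT5A chr6:81491439-81752774 on the minus strand.

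TRIB1, a pseudokinase scaffold, went from 706, 683 and 681 normalised counts to 95.6, 81.0 and 108, leaving 13.7% ± 1.98. ID1, an inhibitor of basic helix-loop-helix factors and a direct target of BMP signalling, went from 1554, 1441 and 1425 to 203, 282 and 137, leaving 14.1% ± 5.04. RPUSD2, of the pseudouridine synthase family, kept 9.99% ± 1.36 and MYC, the growth-promoting transcription factor, 20.6% ± 6.21. The changes of these 4 on the log2 scale were -2.87 ± 0.15, -2.82 ± 0.17, -3.32 ± 0.22 and -2.32 ± 0.26, with adjusted p = 8.8e-12, 7.8e-11, 3.2e-10 and 8.5e-07. With the same minimum of 100 normalised counts at 0 h, other protein-coding genes among the 20 that fell most were ETAA1, an activator of the ATR checkpoint kinase (-2.51), ZBED5 (-2.36), HOXB6 (-2.41), HPS6, a subunit of a lysosome biogenesis complex (-2.25), the phosphatases DUSP5 (-2.15) and DUSP10 (-2.12), and the deadenylation adaptor TOB2 (-2.14). NOTCH2NLC (-2.19) was also among them, but it has near-identical copies in the genome and its counts are uncertain. This set of 20 was drawn up after values were seen.

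**Figure D1:**
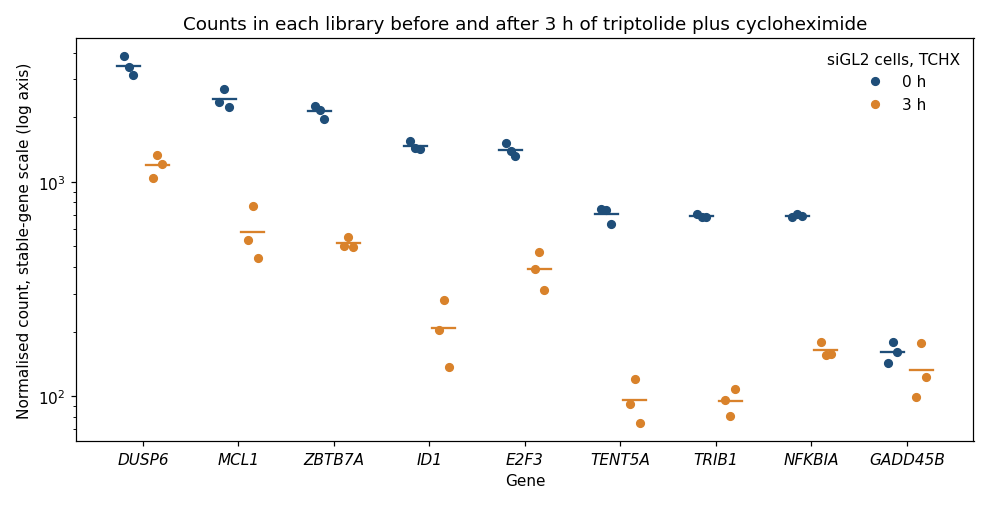
Normalised counts on the stable-gene scale (log axis) of 9 genes in the 3 libraries at 0 h (blue) and the 3 libraries at 3 h (orange) of siGL2 cells under TCHX; points are libraries and bars are means. The 3 h libraries lie below all 0 h libraries for every gene shown except GADD45B, whose times overlap.

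The list of immediate early transcription factors had the largest share of lower members among the lists examined. Growth factors and stress switch on immediate early genes within minutes. The list was drawn more widely and also holds other regulators, such as SNAI2, HES1, SOX4 and SOX9. Of 33 tested members 21 were lower on both scales (63.6%), with a median of -1.14 against -0.48 over all genes. After MYC, the members with the largest falls were SNAI2, a repressor of epithelial genes, and the AP-1 subunit JUNB. SNAI2 had 434, 362 and 407 normalised counts at 0 h and 90.7, 103 and 96.3 at 3 h. JUNB had 389.9, 358 and 376 at 0 h and 97.6, 104 and 70.4 at 3 h. SNAI2 left 24.3% ± 3.81 and JUNB 24.3% ± 5.24, with no overlap of times. HES1, a repressor downstream of Notch, left 27.9% ± 5.34, and FOS, which carries the nonamer printed above, 25.5% ± 9.13. KLF6 and IER2 left more, 41.9% ± 4.89 and 47.2% ± 11.9. The AP-1 subunit FOSB and the stress factor ATF3 were not lower on both scales: ATF3 had 62.0, 57.3 and 60.0 at 0 h and 60.1, 40.1 and 52.6 at 3 h, a change of -0.24 on the stable-gene scale (adjusted p = 0.48) and 0.25 on the TMM scale.

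Feedback regulators of the ERK pathway, which is driven by mutant BRAF in A375 cells, formed a second such list. Of 19 tested, 10 were lower on both scales (52.6%), and 6 when either replicate 1 library of TCHX was left out, with a list median of -0.91. The largest falls were those of DUSP5 and DUSP10, phosphatases of MAP kinases. DUSP10 had 725, 693 and 564 normalised counts at 0 h and 131, 171 and 149 at 3 h, and DUSP5 316, 264 and 263 at 0 h and 74.0, 66.9 and 49.3 at 3 h. DUSP6, which acts on ERK itself, was the most abundant of them and went from 3850.0, 3424 and 3162 to 1040.3, 1335 and 1205, leaving 34.7% ± 6.68 (log2 change -1.54 ± 0.12, adjusted p = 2.0e-09). It spans chr12:89347235-89352501 on the minus strand of GRCh38 and has 3 exons. The inhibitors SPRY2 and SPRY4 left 42.7% ± 4.48 and 51.0% ± 2.66. ETV4, a transcription factor of the same pathway, changed by -0.24, and CCND1, cyclin D1, by -0.47 beside -0.48 for the median gene.

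In the TGF-β and BMP list, 7 of 16 were lower on both scales (43.8%), with a list median of -0.95. SMAD7, the inhibitory SMAD, had 90.1, 38.6 and 55.9 normalised counts at 0 h and 5.92, 0.70 and 2.43 at 3 h, from raw counts of 6, 1 and 3 at 3 h (log2 change -4.39 ± 0.58, adjusted p = 7.1e-06). The low counts leave the size of this fall imprecise although the times did not overlap. Besides ID1 and CCN1, the members ID2 (-1.30), ID4 (-1.12), TGIF1 (-1.73) and BAMBI (-1.05) fell. SMURF1, an ubiquitin ligase for SMADs, changed by -0.19 (adjusted p = 0.3). In the list of IRF2BP, HEXIM and other regulators, 8 of 17 were lower on both scales (47.1%), with a median of -1.05. They included HEXIM1, an inhibitor of the elongation factor P-TEFb, at 834, 858 and 724 normalised counts at 0 h and 227, 288 and 224 at 3 h, RHOB, a small GTPase (24.1% ± 1.33 left), the coactivator CITED2 (17.1% ± 2.91) and the corepressor IRF2BP2 (48.0% ± 4.18).

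The list of AU-rich element mRNAs and NF-κB feedback held fewer such genes. Of 16 tested, 3 were lower on both scales (18.8%), namely NFKBIZ, NFKBIA and the kinase SGK1, with a median of -0.70. NFKBIA, which encodes the inhibitor IκBα, had 684, 703 and 690.1 normalised counts at 0 h and 178, 155 and 158 at 3 h, leaving 23.7% ± 2.15 (log2 change -2.08 ± 0.14, adjusted p = 2.0e-10). VEGFA, a growth factor of vessels, changed by -0.74, HIF1A, the oxygen-regulated transcription factor, by -0.41 and HMOX1, heme oxygenase, by -0.14, none of them called on both scales. Of 26 tested CCCH zinc finger decay factors and deadenylation adaptors, 6 were lower on both scales (23.1%; list median -0.57). These were TOB2, tristetraprolin (ZFP36, -2.58) and its relative ZFP36L2 (-1.002), the Regnase genes ZC3H12A (-4.69) and ZC3H12C (-1.31), and RC3H1, which encodes Roquin-1 (-1.01). ZC3H12A and ZFP36 had few counts, at 0, 5 and 0 and 2, 10 and 7 raw counts at 3 h. The subunits of the CCR4-NOT deadenylase itself stayed near the median gene, with CNOT1 at -0.45 and CNOT7 at -0.46.

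Zinc finger genes named ZNF were the largest list. Of the tested members, 64 were lower on both scales (17.1%), with a list median of -0.85. Leaving out a single library gave 33 to 57 members, with 33, 39 and 36 without the 0 h replicates 1, 2 and 3 and 35 without the 3 h replicate 1. ZNF557 had 310.1, 246 and 274 normalised counts at 0 h and 60.1, 54.9 and 51.0 at 3 h. ZNF296 had 100.4, 113 and 110.1 at 0 h and 16.8, 17.6 and 21.8 at 3 h. ZNF850, the lowest, had 59.1, 53.8 and 72.3 at 0 h and 2.96, 7.74 and 6.47 at 3 h, and in none of these 3 did the times overlap. The abundant ZNF106 (-0.46) and ZNF207 (-0.57) were not called on both scales, and ZNF488, named here only because it was the single member higher on the stable-gene scale, had few counts at 0 h, with a mean of 9.14.

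The BCL2 family and the p53 targets were lists of regulators of cell death and of the cell cycle. MCL1, an anti-apoptotic member of the BCL2 family with a short-lived protein, had 2366, 2704 and 2225 normalised counts at 0 h and 537, 770.1 and 442 at 3 h (log2 change -2.06 ± 0.15, adjusted p = 1.5e-09). The pro-apoptotic BH3-only genes BBC3 and BCL2L11 left 44.05% ± 12.3 and 44.8% ± 17.1. BAX, the pore-forming member, had 353, 373 and 395 at 0 h and 365, 301 and 434 at 3 h and a change of -0.03 (adjusted p = 0.86). In all, 3 of 14 members of this family were lower on both scales (21.4%; median -0.67). Of the p53 targets, 5 of 23 were lower (21.7%; median -0.58), among them the cell cycle inhibitor CDKN1A, which went from 737, 446 and 609.6 to 210.0, 216 and 210.3.

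Of the cell division regulators, 2 of 35 were lower on both scales (5.71%; median -0.44), close to the background of 5.23%. They were E2F3, a transcription factor of S-phase entry, and the mitotic brake kinase WEE1. E2F3 had 1511, 1395 and 1315 normalised counts at 0 h and 393, 471 and 311 at 3 h (log2 change -1.84 ± 0.14, adjusted p = 1.7e-09), so the times were well apart. WEE1 left 47.8% ± 1.11. The mitotic genes CDC20 (-0.40), AURKB (-0.26), CCNB1 (-0.44) and TOP2A (-0.50) were not called on both scales. Polyamine enzymes gave 1 of 9 (11.1%; median -0.57), SAT1, the acetyltransferase that starts polyamine breakdown, with 38.5% ± 6.45 left. Ubiquitin and cullin adaptors with circadian repressors gave 2 of 22 (9.09%; median -0.85), SOCS3 (-2.42) and KLHL11 (-1.22), and CLK kinases, cyclin L and SR splicing factors 2 of 18 (11.1%; median -0.64), CCNL1 (-1.02) and TRA2B (-0.93). In that list SRSF5 changed by -0.01 on the stable-gene scale and by 0.47 on the TMM scale.

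The lists of housekeeping mRNAs had medians near or above that of all genes. None of 15 glycolytic mRNAs was lower on both scales, with a list median of -0.29, and 11 were lower on the stable-gene scale alone. GAPDH had 114517, 112766 and 112908 normalised counts at 0 h and 95365, 94762 and 93955 at 3 h, leaving 83.5% ± 0.46, and its change was -0.26 on the stable-gene scale but 0.22 on the TMM scale. Of 77 ribosomal protein mRNAs, 2 were lower on both scales (2.60%), RPL22L1 and RPL36AL, both paralogues of a main ribosomal protein, with a list median of -0.45. RPL22L1 had 11758, 10294 and 9202 normalised counts at 0 h and 5412, 5871 and 4854 at 3 h, with no overlap. Actin, tubulin and vimentin genes gave 1 of 20 (5.00%; median -0.48), the tubulin gene TUBB2A (-0.84). The lowest of that list was ACTG1, a cytoplasmic actin, with 233, 191 and 569 normalised counts at 0 h and 142, 198 and 142 at 3 h, where the times overlapped. Its change was -1.06 on the stable-gene scale (edgeR adjusted p = 0.0027) and -0.39 without 0 h replicate 3 (adjusted p = 0.11), and it was not called on the TMM scale (-0.61, adjusted p = 0.25). Translation factors with a 5′ terminal oligopyrimidine tract gave 1 of 19 (5.26%; median -0.49), EIF4A2 (-0.88). Mitochondrially encoded mRNAs were not analysed here.

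**Figure D2:**
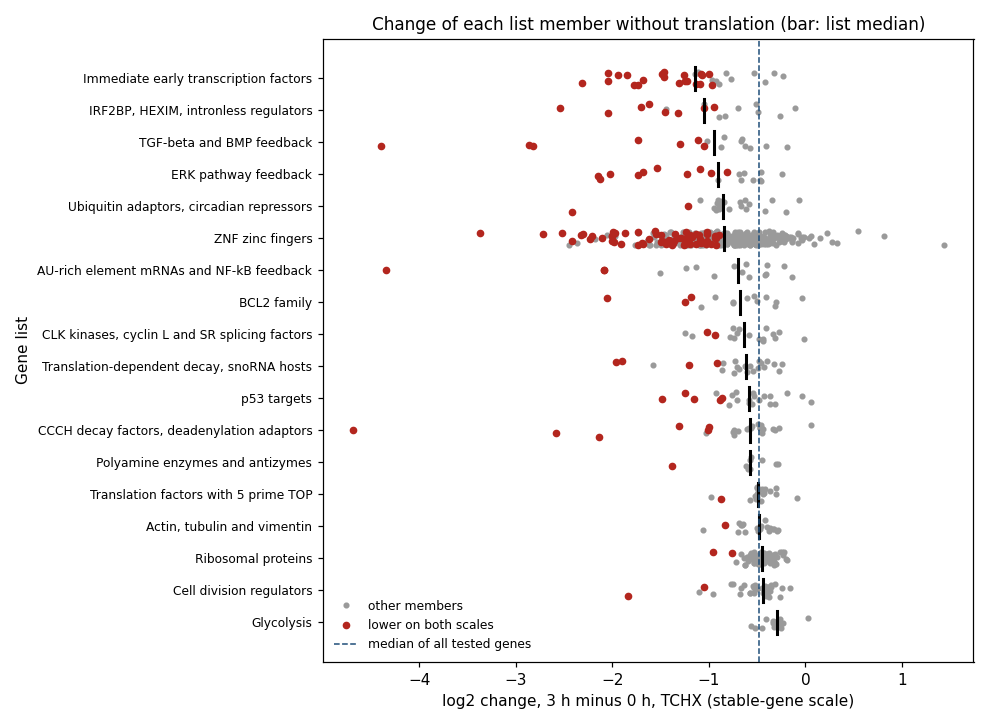
The log2 change from 0 h to 3 h under TCHX (stable-gene scale) of every tested member of 18 gene lists; red points are lower on both scales, black bars are list medians and the dashed line is the median of all tested genes, -0.48. List medians run from -1.14 for the immediate early factors to -0.29 for glycolysis.

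The snoRNA host genes and known targets of translation-dependent decay are a list in which blocked translation is known to protect mRNAs. Of 24 tested, 4 were lower on both scales under TCHX (16.7%; median -0.62), namely SNHG3, SNHG12, TAF1D and GAS5. In the T arm 16 of 24 were lower on both scales (median -1.21), and 6 of 24 fell less under TCHX (25.0%, against 3.83% of all genes tested for the difference). SNHG3 had 2788, 1929 and 1829.6 normalised counts at 0 h and 485, 657 and 532 at 3 h (log2 change -1.96 ± 0.15, adjusted p = 1.9e-09). In the T arm SNHG3 had 1925, 2081 and 1876 at 0 h and 488, 637 and 441 at 3 h, and the 2 changes differed by -0.05 ± 0.22 (adjusted p = 0.96). SNHG12 changed by -1.90 under TCHX and -2.54 in the T arm.

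The T arm asks how much each mRNA fell with ribosomes running, in libraries of its own. There 1728 of 12095 tested genes were lower on both scales (14.3%), and the median of all genes on the stable-gene scale was -0.47, close to that under TCHX. The stable genes were picked by the same rule in both arms, so these medians cannot show whether cycloheximide changed the overall fall. Of the 632 TCHX genes tested in both arms, 487 were also lower in the T arm (77.1% of them and 28.3% of the 1722 T genes). The test of the difference between arms, over 12845 genes, found 492 that fell less under TCHX (3.83%) and 10 that fell more (0.0779%). The first count was 208 without replicate 1 and 244 without replicate 2, and the second 1 without replicate 1 and 23 without replicate 3. The second count was also 44 with TMM scaling, 24 with total counts, 28 with DESeq2 and 60 without the filter on low counts. A block for the replicate number gave 845 that fell less and 188 that fell more, so both counts depend on the model. Of the 632 genes, 108 fell less under TCHX (17.1%), 6 fell more and 518 had no call either way (82.0%), with median changes of -1.34 under TCHX and -1.73 in the T arm. A missing call does not show that the 2 falls were equal. The 632 genes were picked by their fall under TCHX, and the difference uses the same TCHX libraries. The split and the median of -1.34 are therefore not independent of that choice.

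For some genes the falls lay close together in both arms. Among genes with at least 100 normalised counts at 0 h under TCHX, 51 fell at least 4-fold in both arms and passed the test in each. Their share of all genes with such counts was not computed. The 5 of the 51 with the smallest difference between arms were MIR3142HG, MIRLET7BHG, NOTCH2NLC, TENT5A and ZBTB7A. TENT5A changed by -2.88 ± 0.17 under TCHX and -2.90 ± 0.15 in the T arm, with a difference of 0.03 ± 0.23. ZBTB7A, a repressor of the POK family, had 2254, 2158 and 1965 normalised counts at 0 h and 501, 555 and 494 at 3 h under TCHX. In the T arm it had 2122, 1975 and 1935 at 0 h and 468, 537 and 433 at 3 h, and the difference between arms was 0.03 ± 0.15 on the log2 scale. Its 3 h values in one arm overlapped those in the other. E2F3 (-1.84 and -1.68), HEXIM1 (-1.70 and -1.77), SAT1 (-1.38 and -1.35) and EPM2AIP1 (-1.73 and -1.87) had differences between arms of -0.16 ± 0.19, 0.07 ± 0.21, -0.03 ± 0.18 and 0.14 ± 0.21.

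A second kind fell without translation but much further with it. NFKBIA went from 657, 686 and 609.6 normalised counts to 18.9, 26.1 and 11.7 in the T arm, so that its change of -2.08 under TCHX compared with -5.09 there (difference 3.00 ± 0.24, adjusted p = 6.3e-08). ID1 changed by -2.82 and -5.09 (difference 2.26 ± 0.28, adjusted p = 1.4e-05), TRIB1 by -2.87 and -4.98 (2.11 ± 0.28, adjusted p = 2.8e-05) and MCL1 by -2.06 and -3.38 (1.32 ± 0.28, adjusted p = 0.0065). The most positive difference among genes with at least 100 counts was that of DUSP6, which went from 3181, 3426 and 3163 to 49.7, 54.4 and 29.2 in the T arm, a change of -6.18 ± 0.16 (difference 4.64 ± 0.20, adjusted p = 2.2e-12). All its T libraries at 3 h lay far below all its TCHX libraries at 3 h, while the 0 h libraries of the arms overlapped. Of the immediate early list, 19 of 33 fell less under TCHX, of the ERK list 9 of 19, and of the ZNF list 53 of 373, against 3.83% of all genes.

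The last kind lost nearly all of its mRNA with translation running and much less without it. GADD45B, a stress-induced regulator of p38 signalling, had 143, 178 and 161 normalised counts at 0 h and 98.6, 176 and 122 at 3 h under TCHX. In the T arm it had 158, 165 and 141 at 0 h and 11.9, 1.09 and 3.51 at 3 h. Its TCHX change, -0.28 on the stable-gene scale and 0.19 on the TMM scale, did not pass the test (adjusted p = 0.26), and the difference between arms was 4.45 ± 0.49 (adjusted p = 3.8e-06). JUN, the AP-1 subunit, left 52.6% ± 7.61 under TCHX and 3.60% ± 0.49 in the T arm, ADM, the vasodilator adrenomedullin, 62.0% ± 20.9 and 4.16% ± 0.73, and CSRNP1, an AXIN1-induced nuclear protein, 61.3% ± 30.8 and 2.83% ± 2.51. None of these 4 was lower on both scales under TCHX, although JUN, ADM and CSRNP1 left less than the 71.5% of the median gene. JUN and JUNB thus differed in size of fall under TCHX, at -0.90 and -2.04, a difference between genes that was not tested.

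Fewer genes were called in the other direction. B4GALT5, a galactosyltransferase of glycolipid synthesis, had 651, 615 and 558 normalised counts at 0 h and 159.7, 129 and 156 at 3 h under TCHX. In the T arm it had 623, 509 and 491 at 0 h and 279, 353 and 278 at 3 h. It left 24.5% ± 3.53 under TCHX and 57.0% ± 12.3 in the T arm (difference -1.20 ± 0.20, adjusted p = 5.0e-04). HSPA2, a heat shock 70 family member, changed by -2.11 and -0.74, FABP7, a brain-type fatty acid binding protein, by -1.97 and -0.16, and MTHFD2L, a mitochondrial folate enzyme, by -0.89 and -0.09 (adjusted p of the differences 0.031, 0.0069 and 0.03). The differences of FABP7, HSPA2 and MTHFD2L no longer passed without replicate 1 (edgeR adjusted p = 0.23, 0.61 and 0.44), those of B4GALT5 and MTHFD2L without replicate 2 (0.064 and 0.25) and that of HSPA2 without replicate 3 (0.074), although the directions stayed. RPL22L1 also fell more under TCHX, at -0.95 against -0.40 (adjusted p = 0.04). CDKN1A had -1.49 and -0.79, a difference that did not pass the test (adjusted p = 0.088).

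**Figure D3:**
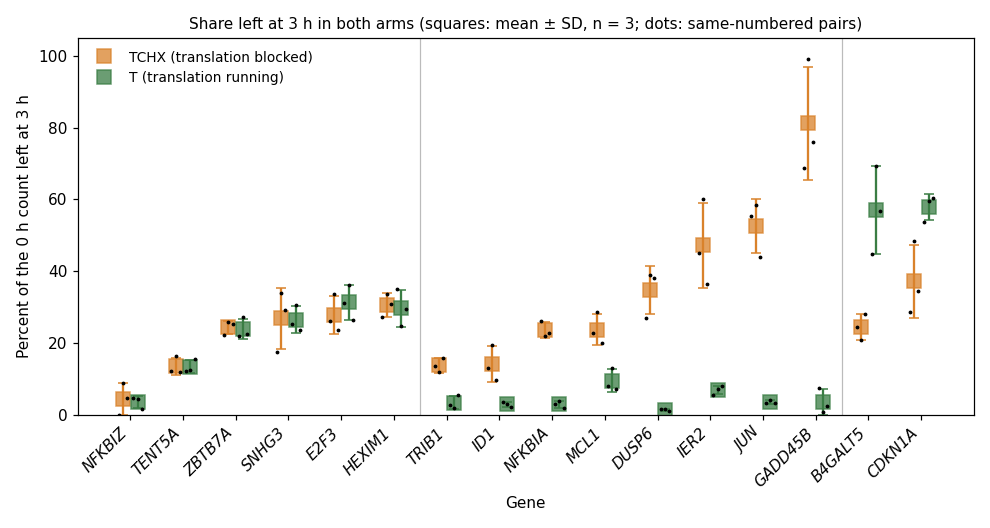
Percent of the 0 h count left at 3 h in siGL2 cells under TCHX (orange) and with triptolide alone (green); squares and bars are the mean ± SD of the 3 same-numbered pairs and dots are the pairs. The first 6 genes have both arms close together, the middle 8 have more left under TCHX, and the last 2 have less left under TCHX.

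Genes that rose relative to the stable genes were few. By the same rule as for the falls, the largest rise was that of LOC105374748, a noncoding transcript inside the span of ANXA2R-OT1, with 65.0, 122 and 135 normalised counts at 0 h and 1087, 896 and 1542 at 3 h (log2 change 3.41 ± 0.21, adjusted p = 7.7e-11). In the T arm it had 90.7, 71.9 and 167 at 0 h and 125, 169.6 and 144 at 3 h. All TCHX libraries at 3 h were above every other library named here for this gene. KLHL17, an adaptor of a cullin ligase, changed by 0.87 ± 0.16, and RN7SL832P, a pseudogene of the signal recognition particle RNA, by 1.36 ± 0.23, though it may share reads with other copies. CYB5D2 changed by 1.38 ± 0.16 but is itself a stable gene, picked for rising, and PKD1 has pseudogene copies that can share its reads.

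Features of the mRNAs that the rule did not use differed between those lower on both scales and the others. Of 10808 protein-coding genes with an annotated 3′ UTR of at least 20 bases, 499 were lower on both scales. The share fell with the number of exons. It was 21.4% of 196 single-exon mRNAs, 11.8% of 1123 with 2 to 3 exons, 5.79% of 2367 with 4 to 6, 3.32% of 3403 with 7 to 12 and 2.02% of 3719 with 13 or more. Without the ZNF names the first and the last of these shares were 21.0% and 2.00%. The median change over all tested members of these classes ran from -0.73 for single-exon mRNAs to -0.43 for those with 13 or more exons, and from -1.03 to -0.44 in the T arm. Median coding length was 960, 792, 760.5, 1236 and 2589 bases in the 5 classes, from 1 exon upwards. Median counts at 0 h were lower in the classes with few exons, at 179, 244, 362, 388 and 385 normalised counts in the 5 classes, and the part of length and counts in the shares was not tested.

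**Figure D4:**
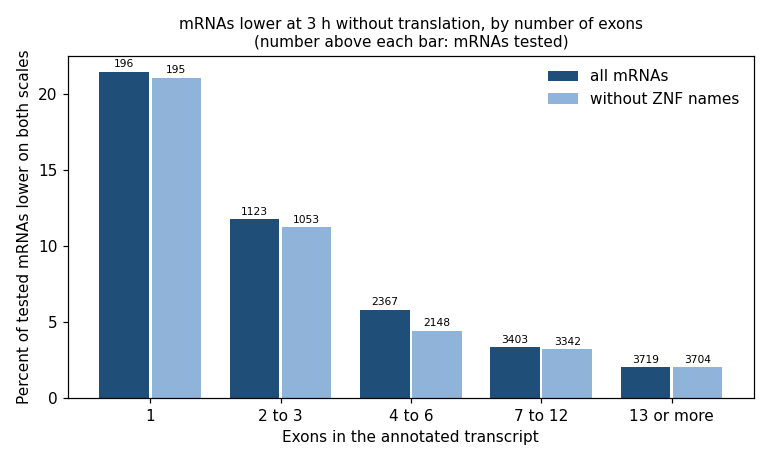
Percent of tested mRNAs lower on both scales at 3 h under TCHX, by the number of exons of the annotated transcript, for all mRNAs (dark) and without ZNF names (light); the number above a bar is the number of mRNAs tested. The share falls from 21.4% for 1 exon to 2.02% for 13 or more.

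AU-rich motifs were more frequent in the mRNAs that fell, but so was a long UTR. The heptamer TATTTAT, searched on the sense strand only, was in the 3′ UTR of 265 of the 499 mRNAs (53.1%) and of 3849 of the 10309 others (37.3%), and in 38.1% of all. The nonamer TTATTTATT, which contains the heptamer, was in 13.4% of the 499 and 10.0% of the others, and in 10.2% of all. The median UTR was 2063 bases in the first group and 1386 in the second, and the density of heptamers was 0.36 and 0.33 per kilobase. Among mRNAs with UTRs of 20 to 814 bases the density was 0.79 in those that fell and 0.41 in the others, with UTRs of 815 to 2304 bases 0.44 and 0.34, and with UTRs of 2305 to 32870 bases 0.33 and 0.32. The share with a heptamer was 21.6% and 13.6%, 43.0% and 34.0%, and 74.9% and 65.3% in these 3 ranges of length. The share with the nonamer was 6.19% and 2.54%, 8.38% and 7.54%, and 20.6% and 20.3%. The UTRs of REL, IER5 and EPM2AIP1, printed above, are in the longest range, where the nonamer shares were nearly alike. By number of heptamers, 3.50% of mRNAs with none, 5.56% with 1, 7.73% with 2 and 7.36% with 3 or more were lower on both scales. NFKBIZ, TRIB1, ID1 and DUSP6 had no heptamer in the annotated UTR, which says only that these letters are not there. The median share of codons ending in A or T was 47.4% in the mRNAs that fell and 42.4% in the others. In the 3 ranges of UTR length, from the shortest, it was 42.1% and 35.5%, 45.8% and 43.2%, and 50.4% and 48.5%. The part of UTR length and of the ZNF genes in this contrast was not tested.

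The mRNAs whose nonamer stretches are printed above fell in both arms. REL, an NF-κB subunit, had 408, 340.5 and 369.7 normalised counts at 0 h and 117, 134 and 124 at 3 h under TCHX, a change of -1.57 against -2.17 in the T arm (difference 0.60 ± 0.22, adjusted p = 0.18). IER5, a regulator of heat shock factor 1, had 389.9, 475 and 499 at 0 h and 146, 210.5 and 130.2 at 3 h, a change of -1.48 against -4.94 (difference 3.46 ± 0.42, adjusted p = 1.3e-05). EPM2AIP1 had 429.7, 477 and 445 at 0 h and 141, 137 and 130.2 at 3 h, with times far apart.

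pQ cells gave a fall without translation in libraries that share none with siGL2 cells. Their median change on the stable-gene scale of their own experiment was -0.57, and 128 of 12611 tested genes were lower on both scales (1.01%), or 332 without replicate 3, whose 0 h library had 19940 genes with a count. Leaving out replicate 1 gave 0 genes (1 library fewer per time and 7945 genes at an unadjusted p under 0.05 with all 3), and leaving out replicate 2 gave 16. Of the 644 siGL2 genes tested in both, 116 were also lower in pQ cells (18.0% of them and 92.8% of the 125 pQ genes), and without pQ replicate 3 251 of 639 were (39.3% of them and 77.0% of 326). For the genes described above, the changes in pQ cells were -4.65 for NFKBIZ, -5.03 for MIR222HG, -3.06 for CCN1, -3.44 for TRIB1, -2.68 for ID1 and -2.47 for NFKBIA. TENT5A fell by a smaller amount, -1.73 against -2.88 in siGL2 cells, as did RPUSD2, -1.16 against -3.32. FABP7 changed by -0.11 in pQ cells (adjusted p = 0.82). Differences between the siGL2 and pQ experiments were not tested, since each has its own stable genes. Single-exon mRNAs had a median of -0.74 in pQ cells and those with 13 or more exons -0.53.

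At 5 h under TCHX the same 0 h libraries served as the reference, so the values only extend the course. The median change of all genes was -0.70, and replicate 3 at 5 h stood apart, with a mean r of 0.939 with its group and 5987692 counts. On the stable-gene scale 2762 genes were lower at 5 h, 0 without replicate 1, 0 without replicate 2 and 6828 without replicate 3. The values of single genes at 5 h are given without their spread and are uncertain. DUSP6 had changed by -4.41 at 5 h, MCL1 by -4.12, ZBTB7A by -3.50, TENT5A by -4.18 and CCN1 by -6.61. SNHG3, at -2.01, and SAT1, at -1.71, were close to their 3 h values of -1.96 and -1.38. JUN had changed by -1.78 and GADD45B by -1.10.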

How the data were processed

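Cytoplasmic RNA of A375 cells was sequenced with QuantSeq. According to the labels and methods, the authors trimmed reads with fastp 0.20.1, aligned them to GRCh38.p13 with HISAT2 2.2.1 and counted them per gene with HTSeq 0.13.5. The deposited file holds raw counts of 44659 gene names in 72 libraries. Of these names, 5084 are extra copies of another name. ERCC RNA was spiked in, but no spike-in count was used here.

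Groups came from the labels. Genes were filtered with filterByExpr and tested in edgeR 4.0.16 (R 4.3.3, quasi-likelihood F test, Benjamini-Hochberg over all genes tested, threshold 0.05), with SE taken from the log2 change and the F statistic. Size factors were the median of ratios over stable genes chosen by the study's rule: CPM over 0.2 at 0 h, at least 1.1 times higher at 3 h or 5 h, and a 0 h value over 0.1 times the later one, in both arms and all replicates. This gave 198 genes (197 with counts in all siRNA libraries) and 82 in the medium experiment. Requiring significance also with TMM scaling ("lower on both scales"), the classes by exon number and the 20 protein-coding falls were chosen after seeing the data. The members and lists were chosen with earlier results of these data known.

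Named genes were the 15 largest falls and 5 largest rises with a 0 h mean of at least 100 normalised counts that moved alike in all same-numbered pairs, the 5 most positive and 5 most negative differences between arms, the 2 most and 1 least negative members of each list with at least 50 counts, and the 5 most similar of the genes that fell at least 4-fold in both arms. Some genes that these rules name are not reported here. Further members were named as examples after their values were seen. Percent left is the mean ± SD of ratios of same-numbered libraries, a matching by label only. Sequence features came from GENCODE v44 on GRCh38, matched by symbol (11697 of 12497 tested genes with coordinates), and gene classes and neighbours from RefSeq (GRCh38.p14 names). The fits were tested on simulated counts with known folds, known size factors, the same spread for all genes and no replicate effect. Such counts cannot test the choice of scale or of a replicate block. Alternatives were TMM, total counts, DESeq2 1.42.0, no filter, a replicate block, other stable genes, a test against a 1.5-fold change and leaving out each replicate. Depth limits precision for genes with few counts at 3 h.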

Additional observations from a re-analysis of the deposited data

Results flagged for a closer look

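The falls at 3 h differed between the TCHX arm and the T arm of siGL2 cells, by the edgeR test of the difference itself, for 492 genes that fell less under TCHX and 10 that fell more. Among genes with at least 100 normalised counts, the log2 differences (TCHX minus T) were 4.64 for DUSP6, 4.45 for GADD45B, 4.21 for CSRNP1, 3.85 for JUN and 3.84 for ADM. In the other direction they were -1.81 for FABP7, -1.37 for HSPA2, -1.20 for B4GALT5 and -0.80 for MTHFD2L. The differences have adjusted p-values between 2.2e-12 and 0.031 and were computed over the 12 libraries of the 2 arms.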

How the results depend on the processing

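The scale decided how many genes were called. Without translation, 7701 lower genes became 654 with TMM, 752 with total counts and 698 when tested against a 1.5-fold change, and 135 higher genes became 353, 254 and 73, 240 without the filter on low counts and 89 with stable genes passing at both times. Genes lower at least 2-fold, 8.70% of those tested, became 2.30% with TMM, 2.45% with total counts, 5.07% against a 1.5-fold change, 13.1% with the stable genes of the medium experiment and 45.3% with those passing at both times. The median log2 change was -0.00195, -0.0436, -0.62 and -0.98 with TMM, total counts, the medium stable genes and those passing at both times. SRSF5 turned to 0.47 with TMM and 0.43 with total counts, CENPE to 0.33 with TMM, MYL6 to 0.19 and 0.14, and SRM to 0.20 and 0.16.

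Leaving out single libraries gave 396 to 722 genes lower on both scales without translation, and leaving out each replicate gave 1114 to 1376 in the T arm (1728 with all), 208 to 356 that fell less under TCHX, 1 to 23 that fell more, and 0 to 332 in pQ cells (399 without the filter). At 5 h, 2762 lower genes became 420 with TMM, 667 with total counts, 4689 with DESeq2 and 0 to 6828 on leaving out a replicate. The 10 genes that fell more under TCHX became 44 with TMM, 24 with total counts, 28 with DESeq2 and 60 without the filter. The cause of these changes was not tested.

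Replicate numbers are shared between groups, and the study's methods include the replicate in the linear model of its index of translation-dependent decay. Same-numbered TCHX libraries deviated together with low but positive correlations of 0.063, 0.12 and 0.15. The main tests did not take them as pairs, and ratios of same-numbered libraries match them by this number. In the TCHX arm every library correlated best with its own number, since crossed pairs gave -0.11 to -0.013. A replicate block gave 1106 genes lower on both scales, 845 that fell less under TCHX and 188 that fell more.

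Of the named genes' falls under the alternatives, 1102 kept direction and call, 35 lost the call, 18 gained it and 7 turned direction. Genes with under 20 raw counts at 3 h, among them SMAD7, ZC3H12A and RUNX1-IT1, have the least certain folds.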
